A study of Mus musculus with 12 samples.

Results

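Trp53, the mouse gene for the transcription factor p53, and 9 genes that p53 controls or that control p53 were followed through 12 RNA-seq libraries of the mouse neuroblastoma line Neuro-2a. The members were named by symbol: Trp53, Mdm2, Mdm4, Cdkn1a, Ccng1, Trp53inp1, Ddb2, Zmat3, Phlda3 and Bax. They are 10 of the 55401 gene identifiers in the count files, and all 10 were among the 17569 genes that passed the filter on low counts. They were chosen with earlier results of these libraries in view, so their values against the control are a description.

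In every well a GFP plasmid (1 µg) was transfected together with plasmids for artificial microRNAs in a miR30 backbone (3 µg in all), and GFP-positive cells were sorted after 48 hours. The control, miScramble, carried 1 scrambled microRNA plasmid. The miRbmx group carried a pool of 3 plasmids against Rbmx, which encodes an RNA-binding protein, and miRbmxl1 carried a pool of 2 plasmids against its relative Rbmxl1. Each group had 4 libraries of ribosomal-depleted total RNA, numbered as biological replicates 1 to 4. All groups share the GFP plasmid, the transfection and the sort, and the sort selected for GFP and not for the microRNA plasmid. The labels do not say what a replicate number stands for, so the p-values measure the spread between these samples.

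p53 is a transcription factor that is held low in unstressed cells by Mdm2, a ubiquitin ligase, and by its relative Mdm4, which blocks p53 activity. When p53 is stabilised after DNA damage or other stress, it binds DNA as a tetramer and switches on genes for cell cycle arrest, DNA repair and apoptosis. Mdm2 is itself a p53 target, which makes a feedback loop. Much of the control of p53 acts on the protein, so the level of Trp53 RNA is not a measure of p53 activity.

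The promoters of these genes carry the p53 element to different extents, and the windows of 4 members are shown because the genes differ in the results that follow: Cdkn1a and Mdm2 are textbook targets that were not called, Ccng1 rose in miRbmx, and Mdm4 fell in both knockdowns. RefSeq windows on GRCm38.p6, from 250 bases before to 50 bases after a gene's start, were matched for 7 of the 10 members (Ddb2, Zmat3 and Trp53inp1 had none), with 9 windows in all. Capitals mark matches to the 10-base p53 consensus element, of which a full site has a pair. This element was searched by its name's consensus, which reads the same on both strands, with no mismatch allowed. The windows lie at chr17:29090729-29091028 on the plus strand for Cdkn1a, at chr11:40755237-40755536 on the minus strand for Ccng1, at chr10:117710709-117711008 on the minus strand for Mdm2, and at chr1:133030538-133030837 on the minus strand for Mdm4.
Cdkn1a: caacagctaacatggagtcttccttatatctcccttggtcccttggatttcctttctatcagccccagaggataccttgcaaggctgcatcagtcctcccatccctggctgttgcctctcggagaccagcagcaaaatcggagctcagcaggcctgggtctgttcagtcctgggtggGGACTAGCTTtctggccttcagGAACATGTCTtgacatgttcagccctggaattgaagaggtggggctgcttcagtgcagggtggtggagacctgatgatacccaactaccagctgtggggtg
Ccng1: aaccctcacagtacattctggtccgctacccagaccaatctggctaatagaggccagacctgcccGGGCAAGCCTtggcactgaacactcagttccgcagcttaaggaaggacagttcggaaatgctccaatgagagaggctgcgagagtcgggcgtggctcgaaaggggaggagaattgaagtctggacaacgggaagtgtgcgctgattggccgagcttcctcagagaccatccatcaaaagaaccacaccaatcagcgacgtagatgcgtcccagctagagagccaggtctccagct
Mdm2: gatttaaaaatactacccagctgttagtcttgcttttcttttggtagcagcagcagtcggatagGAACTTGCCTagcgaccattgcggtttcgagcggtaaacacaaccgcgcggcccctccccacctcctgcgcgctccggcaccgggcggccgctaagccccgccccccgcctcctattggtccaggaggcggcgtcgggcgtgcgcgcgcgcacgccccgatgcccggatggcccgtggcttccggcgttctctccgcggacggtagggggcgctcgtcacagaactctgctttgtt
Mdm4: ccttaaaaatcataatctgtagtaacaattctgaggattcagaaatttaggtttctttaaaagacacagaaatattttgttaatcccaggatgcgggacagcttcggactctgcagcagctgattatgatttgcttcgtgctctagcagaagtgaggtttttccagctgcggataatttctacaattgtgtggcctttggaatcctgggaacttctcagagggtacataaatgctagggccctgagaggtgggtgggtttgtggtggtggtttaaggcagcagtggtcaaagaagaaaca

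Of the 9 windows of members, 5 held the element: 1 each for Bax, Ccng1, Cdkn1a, Mdm2 and Trp53. Across all 32851 windows of this length in the table, 8.36% held it. The Cdkn1a window held a pair of exact matches, GGACTAGCTT starting 73 bases and GAACATGTCT starting 51 bases before the start, with 12 bases between them. The bases directly after GAACATGTCT, tgacatgttc, depart from the consensus at their first base only, so the search with no mismatch left them unmarked. Which of these elements make up a site that p53 uses cannot be read from the marks. A pair with at most 13 bases between its elements occurred in 0.0731% of all windows. In Ccng1 the match was GGGCAAGCCT, 185 bases before the start, and in Mdm2 it was GAACTTGCCT, 186 bases before the start. No match was found in either Mdm4 window, in the Phlda3 window or in the other Cdkn1a window, which says only that these letters are not there. The best known p53 sites of Mdm2 lie in an intron, outside the window shown. A match describes the sequence and does not show that p53 is bound.

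The labels and the cells were checked first. Rbmx was at 57.6 to 73.3 counts-per-million (CPM) in miScramble and at 22.2 to 32.6 CPM in miRbmx, a log2 fold change of −1.30 ± 0.08 (SE; edgeR adjusted p 2.1e-07). The miRbmxl1 libraries were above all of the control libraries for Rbmx, at 81.9 to 90.04 CPM, which was called as a rise of 0.36 ± 0.07 on the log2 scale (edgeR adjusted p 0.0165) and was not called without the replicate number (edgeR adjusted p 0.444). Rbmxl1 was at 31.3 to 36.7 CPM in miScramble and at 12.3 to 16.7 CPM in miRbmxl1, a log2 fold change of −1.27 ± 0.09 (edgeR adjusted p 3.2e-06). Of 10 neuroblastoma and neuronal markers, 9 were at 1 CPM or more on average, with Nefl at or near 0, and their summed level ran from 1364 to 1722 CPM in miScramble, 1459 to 1906 in miRbmx and 1458 to 1708 in miRbmxl1. Of these markers Mycn, a transcription factor and neuroblastoma oncogene, rose in both knockdowns, from a mean of 11.4 CPM in miScramble to 17.1 in miRbmx and 18.4 in miRbmxl1, and no knockdown library overlapped the control. Its log2 fold changes were 0.56 ± 0.12 (edgeR adjusted p 0.0126) and 0.66 ± 0.12 (edgeR adjusted p 0.00844), which lost the call without the replicate number (edgeR adjusted p 0.278 and 0.369). The part of Mycn in the results was not tested. The 8 markers of other cell types summed to 6.59 to 9.17 CPM in miScramble, 7.46 to 11.03 in miRbmx and 8.06 to 10.67 in miRbmxl1, with Epcam and Krt5 at 0 in each library. Most of this sum was Pecam1, an endothelial adhesion protein, at 4.62 to 7.82 CPM. Pecam1 was higher in 4 of 4 same-number pairs in both contrasts and was not called, with log2 fold changes of 0.28 ± 0.11 (edgeR adjusted p 0.122) and 0.24 ± 0.11 (edgeR adjusted p 0.229), and its part in the results was not tested. Libraries held 43.1 to 52.2 M reads in genes. In every group, replicates 1 and 2 stood apart from replicates 3 and 4, and the values within each of these sets are given beside the calls of the members and the counts of the lists.

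Levels can be compared between genes only per length, here as CPM per kilobase of merged exons. In miScramble, Trp53 was the highest member with a mean of 36.2 CPM per kilobase, followed by Phlda3 at 33.7, Mdm2 at 25.7, Bax at 25.3 and Cdkn1a at 18.4. Zmat3 had a mean of 13.9 CPM per kilobase, Mdm4 7.10, Ccng1 5.44, Trp53inp1 3.91 and Ddb2 1.06. Over the 4 control libraries the ranges of neighbours in this order overlapped for Trp53 and Phlda3, Phlda3 and Mdm2, Mdm2 and Bax, Cdkn1a and Zmat3, and Ccng1 and Trp53inp1. They did not overlap for Bax and Cdkn1a, Zmat3 and Mdm4, Mdm4 and Ccng1, or Trp53inp1 and Ddb2.

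**Figure D1:**
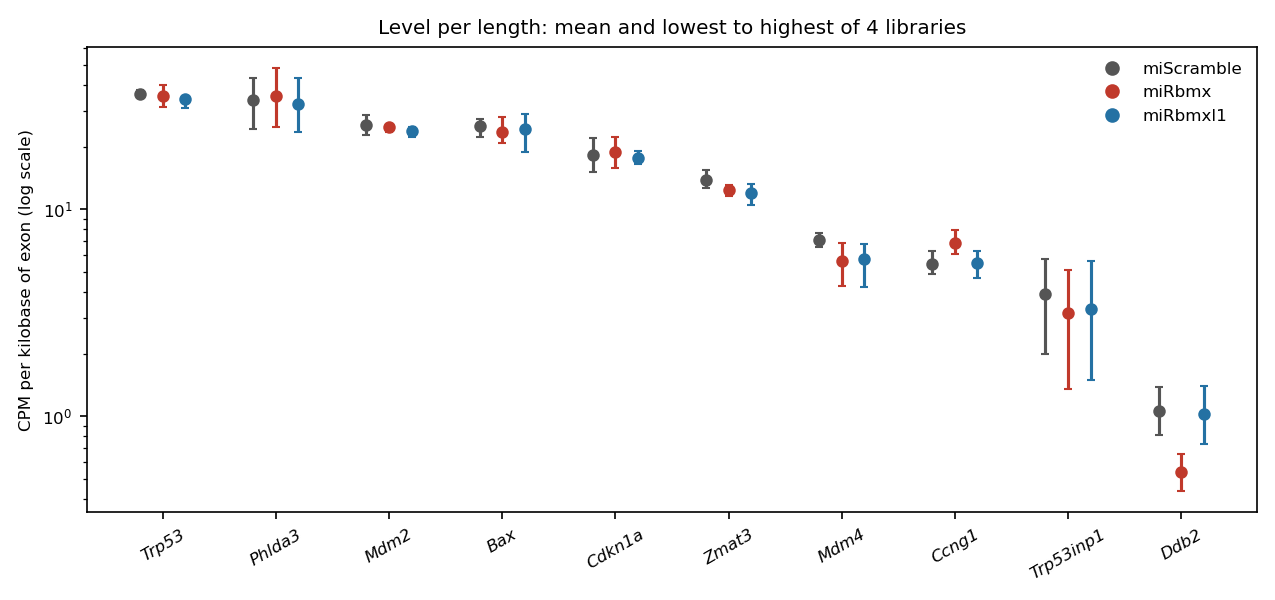
Level of each member per length, in CPM per kilobase of exon on a log axis, in order of the miScramble mean. Points are means of 4 libraries and bars run from the lowest to the highest library, so they are ranges and not errors of the mean. Trp53 is highest at 36.2 and Ddb2 lowest at 1.06 CPM per kilobase in miScramble.

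Trp53 itself was not called in either knockdown. Trp53 (ENSMUSG00000059552; chromosome 11, 69580359 to 69591873, plus strand, GENCODE M21 on GRCm38) was at 144, 147, 152 and 143 CPM in replicates 1 to 4 of miScramble. It was at 162, 126, 139 and 147 CPM in miRbmx and at 143, 141, 125 and 143 CPM in miRbmxl1. The groups overlapped, and the control libraries lay within the range of the miRbmx libraries. Its log2 fold change was −0.03 ± 0.07 in miRbmx (edgeR adjusted p 0.798) and −0.09 ± 0.07 in miRbmxl1 (edgeR adjusted p 0.519). In replicates 3 and 4 alone the miRbmxl1 value was −0.15 ± 0.07 (edgeR adjusted p 0.248). Its processed pseudogene, Trp53-ps, held 21 to 46 reads in any library, against 5573 to 8200 for Trp53.

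The 2 inhibitors of p53 differed in their calls. Mdm2 (ENSMUSG00000020184; chromosome 10, 117688875 to 117710758, minus strand) was at 136, 145, 116 and 125 CPM in miScramble. It was at 130, 130, 120 and 127 CPM in miRbmx and at 114, 123, 120 and 128 CPM in miRbmxl1. All 8 knockdown libraries lay below the highest control library, and the groups overlapped. The log2 fold changes were −0.04 ± 0.06 (edgeR adjusted p 0.730) in miRbmx and −0.10 ± 0.06 (edgeR adjusted p 0.381) in miRbmxl1. In miRbmxl1, Mdm2 was lower than the control in replicates 1 and 2 (log2 ratios −0.25 and −0.23) and slightly higher in replicates 3 and 4 (0.05 and 0.03).

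Mdm4 (ENSMUSG00000054387; chromosome 1, 132959484 to 133030561, minus strand) fell in both knockdowns. It was at 97.4, 102, 113 and 108 CPM in miScramble, at 62.9, 71.5, 102 and 97.4 CPM in miRbmx and at 62.0, 87.8, 100.3 and 89.4 CPM in miRbmxl1. The lowest values were those of replicate 1 of either knockdown, replicate 3 of either knockdown lay within the control range, and every knockdown library was below the control library of its number. Its log2 fold change was −0.36 ± 0.08 in miRbmx (edgeR adjusted p 0.0177) and −0.33 ± 0.08 in miRbmxl1 (edgeR adjusted p 0.0380). Without the replicate number in the model these were −0.33 ± 0.16 (edgeR adjusted p 0.482) and −0.31 ± 0.16 (edgeR adjusted p 0.643). The fall in miRbmx was −0.56 ± 0.11 within replicates 1 and 2 (edgeR adjusted p 0.124) and −0.16 ± 0.07 within replicates 3 and 4 (edgeR adjusted p 0.147). In miRbmxl1 the same values were −0.42 ± 0.11 (edgeR adjusted p 0.166) and −0.23 ± 0.07 (edgeR adjusted p 0.0451). Gene-level counts do not separate the isoforms of Mdm4, of which a short one lacks an exon and gives little protein. Its processed pseudogene, Mdm4-ps, held 4 to 30 reads in any library.

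**Figure D2:**
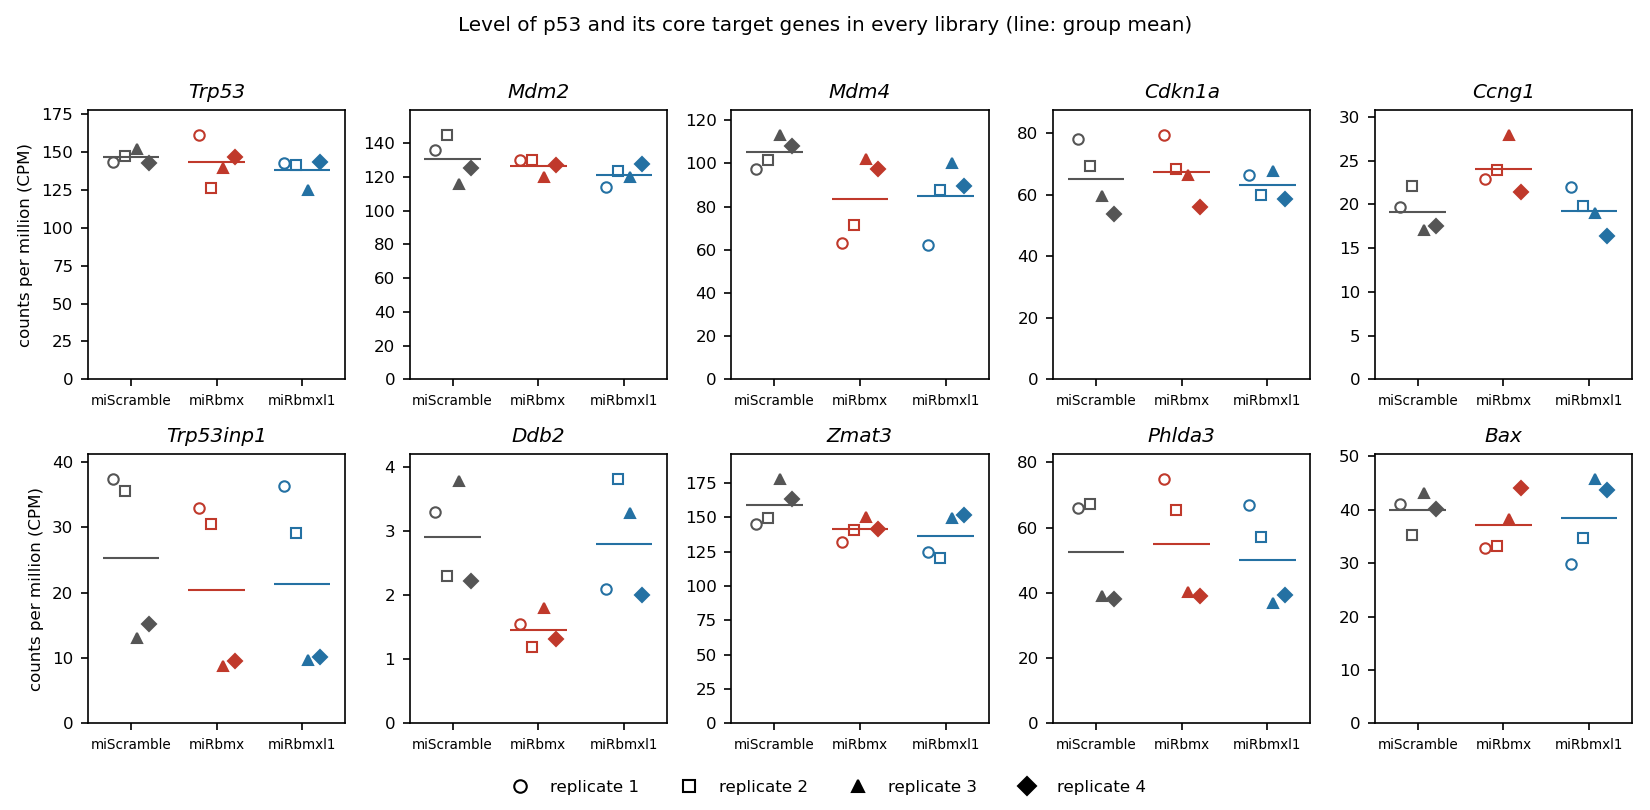
Level of the 10 members in every library, in CPM on linear axes that start at 0, for the 3 groups of 4 libraries. Symbols give the replicate number (open for 1 and 2, filled for 3 and 4) and lines the group mean. Trp53inp1 and Phlda3 split into replicates 1 and 2 above replicates 3 and 4 in each group, and the 4 miRbmx libraries of Ddb2 lie below all control libraries.

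Cdkn1a (ENSMUSG00000023067; chromosome 17, 29090976 to 29100727, plus strand) encodes p21, the inhibitor of cyclin-dependent kinases through which p53 arrests the cell cycle. It was at 78.2, 69.4, 59.7 and 53.9 CPM in miScramble, at 79.5, 68.3, 66.5 and 56.0 CPM in miRbmx and at 66.5, 59.9, 67.6 and 58.7 CPM in miRbmxl1. Against the control library of the same number, the log2 ratios ran from −0.02 to 0.16 in miRbmx, while those of miRbmxl1 were −0.23 and −0.21 in replicates 1 and 2 and 0.18 and 0.12 in replicates 3 and 4. The log2 fold changes were 0.05 ± 0.07 (edgeR adjusted p 0.702) in miRbmx and −0.03 ± 0.07 (edgeR adjusted p 0.844) in miRbmxl1. The miRbmxl1 value came to −0.21 ± 0.08 in replicates 1 and 2 alone and to 0.14 ± 0.07 in replicates 3 and 4 alone, and the difference between the sets, 0.37 ± 0.10, did not pass the test over all genes (edgeR adjusted p 0.332, unadjusted 0.00215). An annotated gene on the opposite strand, AC167363.2, overlaps Cdkn1a by 273 bases and was at no more than 0.175 CPM.

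Ccng1 (ENSMUSG00000020326; chromosome 11, 40748552 to 40755311, minus strand) encodes cyclin G1, a p53 target that brings a phosphatase to Mdm2. It rose in miRbmx and was not called in miRbmxl1. The miScramble libraries were at 19.7, 22.1, 17.0 and 17.5 CPM, those of miRbmx at 22.9, 23.9, 28.0 and 21.5 CPM and those of miRbmxl1 at 22.0, 19.8, 19.0 and 16.4 CPM. In miRbmx all 4 libraries exceeded the control of their number, with the lowest of them below the highest control library. The log2 fold change was 0.34 ± 0.09 in miRbmx (edgeR adjusted p 0.0364) and 0.01 ± 0.09 in miRbmxl1 (edgeR adjusted p 0.957). Without the replicate number the miRbmx value was 0.33 ± 0.12 (edgeR adjusted p 0.344). It was 0.17 ± 0.11 within replicates 1 and 2 (edgeR adjusted p 0.408) and 0.50 ± 0.11 within replicates 3 and 4 (edgeR adjusted p 0.00592).

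Trp53inp1 (ENSMUSG00000028211; chromosome 4, 11156431 to 11174379, plus strand), a stress-induced protein that acts with p53 in cell death and autophagy, fell in both knockdowns. It was at 37.4, 35.6, 13.01 and 15.3 CPM in miScramble, at 33.0, 30.6, 8.74 and 9.60 CPM in miRbmx and at 36.3, 29.2, 9.72 and 10.2 CPM in miRbmxl1. Replicates 1 and 2 were far above replicates 3 and 4 in each group, so the groups overlapped, and each knockdown library was below the control library of its number. Its log2 fold change was −0.40 ± 0.09 in miRbmx (edgeR adjusted p 0.0154) and −0.33 ± 0.09 in miRbmxl1 (edgeR adjusted p 0.0484). Without the replicate number its values were −0.30 ± 0.54 (edgeR adjusted p 0.888) and −0.25 ± 0.54 (edgeR adjusted p 0.963). In miRbmx the fall was −0.19 ± 0.09 within replicates 1 and 2 (edgeR adjusted p 0.308) and −0.63 ± 0.12 within replicates 3 and 4 (edgeR adjusted p 0.00248). In miRbmxl1 these values were −0.15 ± 0.09 (edgeR adjusted p 0.536) and −0.51 ± 0.12 (edgeR adjusted p 0.0149).

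Ddb2 (ENSMUSG00000002109; chromosome 2, 91211572 to 91236982, minus strand), which recognises ultraviolet damage for nucleotide excision repair, fell in miRbmx by more on the log2 scale than any other member. The miScramble libraries were at 3.31, 2.30, 3.79 and 2.22 CPM, from 99 to 204 reads. Those of miRbmx were at 1.55, 1.19, 1.81 and 1.31 CPM, from 55 to 92 reads, and those of miRbmxl1 were at 2.10, 3.82, 3.29 and 2.01 CPM. All 4 miRbmx libraries lay below all 4 control libraries, while the miRbmxl1 libraries spanned the control range. The log2 fold change in miRbmx was −0.97 ± 0.22 (edgeR adjusted p 0.0154), with −1.02 ± 0.36 within replicates 1 and 2 (edgeR adjusted p 0.195) and −0.93 ± 0.23 within replicates 3 and 4 (edgeR adjusted p 0.0152). Without the replicate number it was −0.99 ± 0.26 (edgeR adjusted p 0.266). In miRbmxl1 the value was −0.05 ± 0.21 (edgeR adjusted p 0.934), with log2 ratios from −0.64 in replicate 1 to 0.72 in replicate 2. Ddb2 overlaps Acp2, named after its values were seen, by 652 bases on the opposite strand, and the strand setting of the counting is not given in the sources used here. Acp2 was at 29.2 to 36.3 CPM over all libraries, with log2 fold changes of −0.01 ± 0.06 in miRbmx and −0.00 ± 0.06 in miRbmxl1.

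Zmat3 (ENSMUSG00000027663; chromosome 3, 32334792 to 32366014, minus strand) encodes an RNA-binding zinc finger protein that p53 induces and that takes part in splicing and RNA stability. It was at 145, 150, 178 and 163 CPM in miScramble, at 132, 141, 150 and 142 CPM in miRbmx and at 125, 120, 149 and 151 CPM in miRbmxl1. Each knockdown library was below the control library of its number, and the groups overlapped. It fell in miRbmxl1, with a log2 fold change of −0.22 ± 0.06 (edgeR adjusted p 0.0392), and its value in miRbmx was −0.17 ± 0.06 (edgeR adjusted p 0.0791). Without the replicate number the miRbmxl1 value was −0.22 ± 0.09 (edgeR adjusted p 0.543). Replicates 3 and 4 alone gave −0.23 ± 0.06 in miRbmx (edgeR adjusted p 0.0283), and replicates 1 and 2 alone gave −0.10 ± 0.08 (edgeR adjusted p 0.489). For miRbmxl1 neither set alone kept the call: replicates 1 and 2 gave −0.25 ± 0.08 (edgeR adjusted p 0.211) and replicates 3 and 4 gave −0.19 ± 0.06 (edgeR adjusted p 0.0907).

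Phlda3 and Bax were not called in any comparison. Phlda3 (ENSMUSG00000041801; chromosome 1, 135766119 to 135769136, plus strand), which restrains the kinase AKT, was at 66.1, 67.1, 39.0 and 38.1 CPM in miScramble, at 74.98, 65.3, 40.4 and 39.1 CPM in miRbmx and at 67.1, 57.2, 36.8 and 39.4 CPM in miRbmxl1. Log2 ratios to the control library of the same number ran from −0.04 to 0.18 in miRbmx and from −0.23 to 0.05 in miRbmxl1, and replicates 1 and 2 were above replicates 3 and 4 in all 3 groups. Its log2 fold changes were 0.06 ± 0.06 (edgeR adjusted p 0.607) in miRbmx and −0.06 ± 0.06 (edgeR adjusted p 0.626) in miRbmxl1. Bax (ENSMUSG00000003873; chromosome 7, 45461697 to 45466898, minus strand), which permeabilises mitochondria in apoptosis, was at 41.1, 35.2, 43.1 and 40.0 CPM in miScramble, at 32.9, 33.2, 38.3 and 44.1 CPM in miRbmx and at 29.8, 34.8, 45.8 and 43.7 CPM in miRbmxl1. Replicates 1 and 2 of both knockdowns lay below every control library, and replicate 4 of both lay above every control library. The log2 fold changes of Bax were −0.11 ± 0.09 (edgeR adjusted p 0.456) and −0.07 ± 0.09 (edgeR adjusted p 0.731). Bax shares 192 bases of exon with Gm45808 on the same strand, a gene with no read in any library, and how reads in the shared bases were counted is not given in the sources used here.

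Counted together, 1 member rose (Ccng1) and 3 fell (Mdm4, Trp53inp1 and Ddb2) in miRbmx, and 3 fell in miRbmxl1 (Mdm4, Trp53inp1 and Zmat3). Among all tested genes, 8.35% were called in miRbmx (4.16% higher, 4.19% lower) and 4.46% in miRbmxl1 (2.25% higher, 2.2% lower), by edgeR with the replicate number as a block at an adjusted p under 0.05. The members were chosen with these contrasts known, so nothing is read from their share. Without the block no member was called, and 0.00569% of all genes were called in either contrast. At an unadjusted p under 0.05 it had 2 members in miRbmx, beside 10.9% of all genes, and 1 in miRbmxl1, beside 8.46%. Leaving out single libraries or numbers also ended each of the 7 calls in some fits: a call held in 8 to 11 of 16 such fits in miRbmx and in 2 to 6 of 16 in miRbmxl1. The median log2 fold change over the members was −0.08 in both contrasts, beside −2.19e-05 and 0.01 over all tested genes. The members not called lay between −0.17 and 0.06 in miRbmx and between −0.10 and 0.01 in miRbmxl1. Since cells were measured in bulk, fewer cells with an RNA and less of it per cell cannot be told apart.

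**Figure D3:**
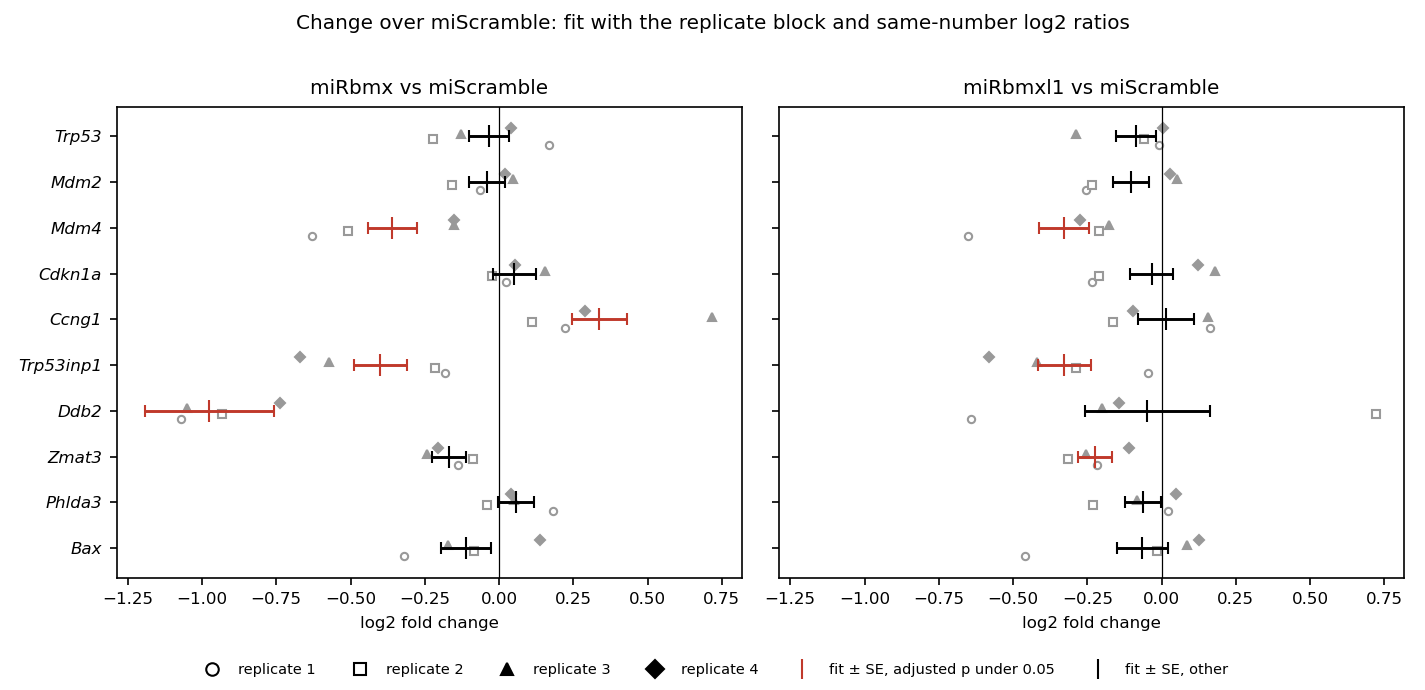
Log2 fold change of each member over miScramble, from the model with the replicate number as a block (vertical tick with a bar of ± SE, red where the adjusted p is under 0.05) and as the log2 ratio of libraries of the same number (grey symbols). Mdm4 lies to the left of 0 for all 4 numbers in both panels, with −0.36 and −0.33, and Ddb2 does so in miRbmx, while its miRbmxl1 ratios lie on both sides of 0.

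In pairs of libraries with the same number, 1 member was higher in all 4 pairs and 4 were lower in all 4 pairs in miRbmx, beside 17.7% and 16.8% of all tested genes. In miRbmxl1, 3 members were lower in all 4 pairs and none was higher, beside 12.6% and 13.4% of all genes. Among the members, Ddb2 in miRbmx had groups that did not overlap, as 8.07% of all genes did in that contrast, and no member did so in miRbmxl1, where 5.67% of all genes did. Both contrasts use the same 4 miScramble libraries, so a low or high control library moves both. Mdm4 and Trp53inp1, which fell in both, are therefore described by each contrast's own values above.

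The knockdowns were also compared with each other, a difference that does not rest on the level of the control libraries. It sets lowered Rbmx in miRbmx against lowered Rbmxl1 in miRbmxl1, where Rbmx was also called higher with the block and not without it. No member was called, with 0.0114% of all genes called by edgeR with the block, and 2 members were at an unadjusted p under 0.05, as 5.7% of all genes were. Ddb2 was lower in miRbmx than in miRbmxl1 by a log2 difference of −0.93 ± 0.22 (edgeR adjusted p 0.694, unadjusted 6.3e-04) and lower in 4 of 4 same-number pairs, as 6.52% of all genes were. Its libraries did not overlap between the knockdowns, which held for 1.12% of all genes. Ccng1 gave 0.32 ± 0.09 (edgeR adjusted p 0.859, unadjusted 0.00319) and was higher in 4 of 4 pairs, as 5.63% of all genes were. Mdm4 differed by −0.03 ± 0.08 and Trp53inp1 by −0.07 ± 0.09. The calls of Ddb2 and Ccng1 in miRbmx and not in miRbmxl1 are thus not shown to differ between the knockdowns at the adjusted threshold. With no filter on low counts, Ddb2 was called in this comparison (edgeR adjusted p 0.00255), in a fit that called 86 genes in all in place of 2. In every other fit described below, no member was called between the knockdowns.

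Trp53inp1 and Phlda3 varied more between the replicate sets than between the groups. Trp53inp1 was at 29.2 to 37.4 CPM in the 6 libraries of replicates 1 and 2 and at 8.74 to 15.3 CPM in the 6 libraries of replicates 3 and 4, a mean log2 difference of −1.62 or 3.08-fold. By group this difference was −1.37 in miScramble, −1.79 in miRbmx and −1.70 in miRbmxl1. Phlda3 was at 57.2 to 74.98 CPM and at 36.8 to 40.4 CPM in the same sets, a mean log2 difference of −0.77 or 1.70-fold, with −0.79, −0.82 and −0.70 by group. The other 8 members overlapped between the sets, with mean log2 differences from −0.22 for Cdkn1a to 0.36 for Mdm4. The sets were defined from these libraries' values and not from the labels, so no test is given.

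Across all tested genes, 20% had 6 libraries of one set wholly above or below the 6 of the other, with 9.4% higher in replicates 3 and 4 and 10.6% lower, as Trp53inp1 and Phlda3 were. Among 21 tested genes of a list of other p53 targets, 4 were wholly higher in replicates 3 and 4 (Aen, Fdxr, Gdf15 and Plk3) and none was wholly lower. Among 25 genes that regulate p53, 3 were wholly higher in replicates 3 and 4 and 7 wholly lower. The change of Trp53 between the sets was −0.02 on the log2 scale, and its sets overlapped. What separates the sets was not tested.

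**Figure D4:**
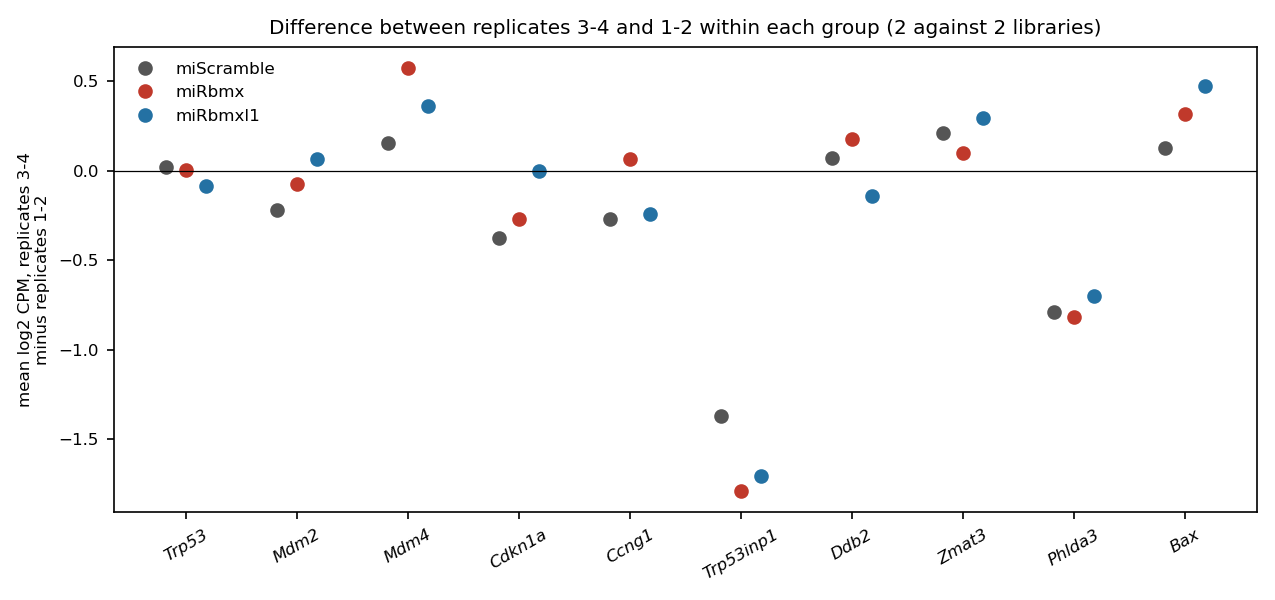
Difference between replicates 3 and 4 and replicates 1 and 2 for each member within each group, as mean log2 CPM with 2 libraries on either side. Points are single differences with no error. Trp53inp1 (−1.37 to −1.79) and Phlda3 (−0.70 to −0.82) lie far below 0 in all 3 groups, while Trp53 lies near 0.

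The size of a knockdown's effect was tested for a difference between the sets with an interaction term. No member passed in either contrast, and no gene of the 17569 did, while 11.1% of genes in miRbmx and 8.36% in miRbmxl1 were at an unadjusted p under 0.05. In miRbmx the largest differences among the members were −0.42 ± 0.13 for Trp53inp1 (edgeR adjusted p 0.329, unadjusted 0.00746), whose fall was larger in replicates 3 and 4, and 0.42 ± 0.13 for Mdm4 (edgeR adjusted p 0.315, unadjusted 0.00623), whose fall was larger in replicates 1 and 2. In miRbmxl1 the largest was that of Cdkn1a, given above. For Trp53inp1, whose fall was larger in replicates 3 and 4 here too, it was −0.34 ± 0.13 (edgeR adjusted p 0.537, unadjusted 0.0254). For Bax it was 0.34 ± 0.15 (edgeR adjusted p 0.574), and for Mdm2 it was 0.28 ± 0.10 (edgeR adjusted p 0.474).

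Other genes of the pathway were counted from lists written from general knowledge, with earlier results of these libraries known. Of 28 further p53 targets, 21 were tested, and in each contrast 2 rose, 1 fell and 18 were not called, beside 8.35% and 4.46% of all genes called. Without the block these calls were lost (lowest edgeR adjusted p 0.345 in miRbmx, for Steap3, and 0.444 in miRbmxl1, for Ppm1d). Btg2, an antiproliferative p53 target, rose by 0.51 ± 0.14 in miRbmx (edgeR adjusted p 0.0312) and 0.59 ± 0.14 in miRbmxl1 (edgeR adjusted p 0.0269) on the log2 scale. Steap3, a metalloreductase, rose by 0.24 ± 0.06 in both contrasts (edgeR adjusted p 0.0316 and 0.0488). Ppm1d, which encodes the phosphatase WIP1 that turns p53 signalling off, fell, with log2 fold changes of −0.30 ± 0.06 (edgeR adjusted p 0.0148) and −0.38 ± 0.06 (edgeR adjusted p 0.00670). The list's median log2 fold changes were −0.04 and −0.01. Within replicates 3 and 4 alone, 22 of these targets were tested. Of these, 7 were called in miRbmx (4 higher and 3 lower) and 1 in miRbmxl1 (lower), where edgeR called 10.1% and 5.53% of all genes. Within replicates 1 and 2 alone 0 of 21 were called in either contrast, where edgeR called 0.023% and 0.172% of all genes, so a count of 0 there says little about any list.

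Among 25 kinases, ligases and binding proteins that act on p53, all were tested. The calls were 2 of 25 in miRbmx and 3 of 25 in miRbmxl1, beside 8.35% and 4.46% of all genes, and they were lost without the block (lowest edgeR adjusted p 0.3298, for Setd7, and 0.361, for Sirt1). In miRbmx, 1 rose and 1 fell: Ppp1r13l, the inhibitor iASPP, gave 0.33 ± 0.09 (edgeR adjusted p 0.0388) and Setd7, a lysine methyltransferase, −0.24 ± 0.07 (edgeR adjusted p 0.0410). In miRbmxl1, 1 rose and 2 fell: Ppp1r13l gave 0.35 ± 0.09 (edgeR adjusted p 0.0480), Hipk2, a kinase of p53, −0.34 ± 0.05 (edgeR adjusted p 0.00644) and Sirt1, a deacetylase, −0.33 ± 0.07 (edgeR adjusted p 0.0158). The list's medians were −0.03 and −0.06. Replicates 3 and 4 alone gave 1 call of 25 in miRbmx and 3 of 25 in miRbmxl1, beside the 10.1% and 5.53% of all genes, and replicates 1 and 2 alone gave 0 in both, beside 0.023% and 0.172%. Of the p53 family, Trp63 had no read in any library, Trp73 was at no more than 0.0460 CPM, and Wrap53, the neighbour of Trp53 on the other strand, was tested and not called.

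Genes that p53 represses through p21 and the DREAM complex were read as a list of 15 cell cycle genes, all tested. In miRbmx 2 rose and none fell: Plk1, the mitotic kinase, by 0.39 ± 0.11 (edgeR adjusted p 0.0386) and Ccnb2, cyclin B2, by 0.30 ± 0.09 (edgeR adjusted p 0.0440). Among all genes 4.16% rose in that contrast, and both calls were lost without the block (edgeR adjusted p 0.325 and 0.391). In miRbmxl1 edgeR called none, beside 4.46% of all genes. The same 2 genes were at an unadjusted p under 0.05 with and without the block, beside 8.46% of all genes without it. They went opposite ways, with 0.26 ± 0.09 for Ccnb2 and −0.16 ± 0.06 for Foxm1. The list's medians were 0.06 and 0.01. In replicates 3 and 4 alone, 6 of the 15 were called in miRbmx and 3 in miRbmxl1, all of them higher. Beside them, 10.1% and 5.53% of all genes were called in either direction, of which 882 of 1818 and 503 of 992 were higher. In replicates 1 and 2 alone 0 were called in both, beside 0.023% and 0.172%.

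**Figure D5:**
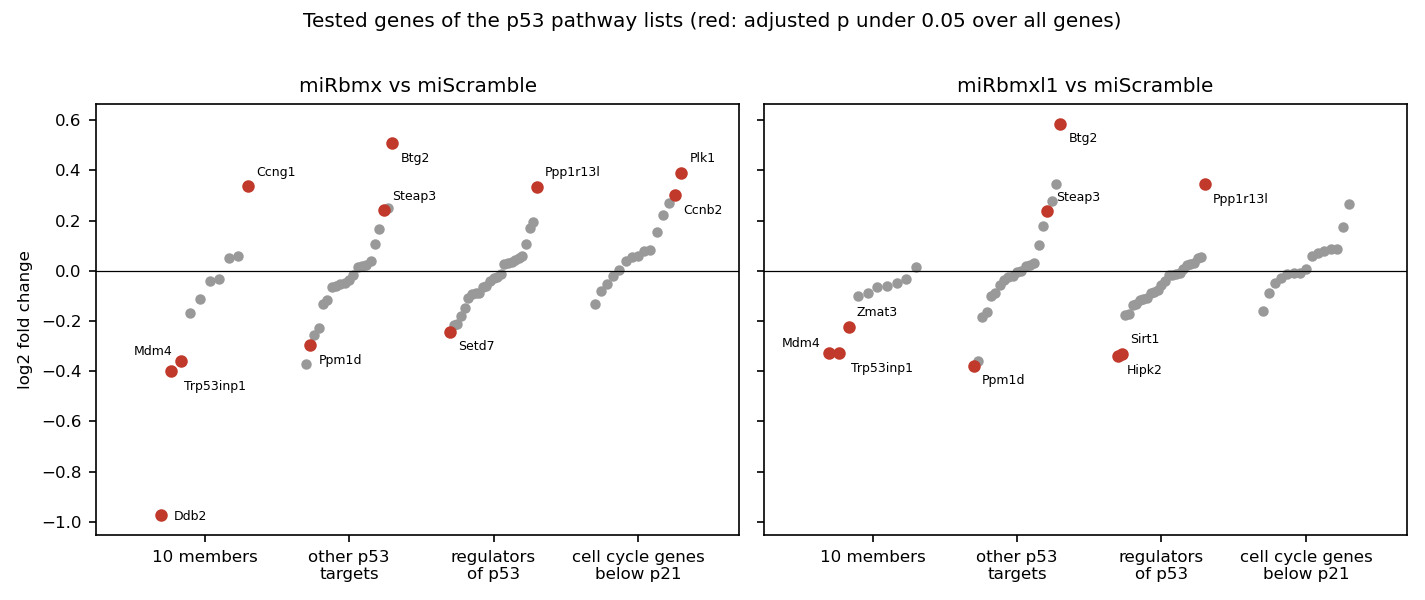
Log2 fold change over miScramble of every tested gene of the members and of the 3 pathway lists, sorted within each list, with genes at an adjusted p under 0.05 in red and named. Calls lie on both sides of 0 in the list of other p53 targets in both panels, with Btg2 highest (0.51 and 0.59) and Ppm1d at −0.30 and −0.38.

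Over the 12 libraries the log2 levels of Trp53 were most like those of Arhgap1 (r = 0.835), Stmn1 (r = 0.795) and Scnm1 (r = 0.785) among 13309 genes searched. Those of Cdkn1a were most like Lhx1 (r = 0.908), Zbtb8a (r = 0.906) and Stmn4 (r = 0.904). These are the highest values of a search over many genes, and the libraries share groups and replicate sets, so no p is given. Among the 45 pairs of members, Trp53inp1 and Phlda3 had the highest r, 0.948, which includes their shared split between the sets. After group and replicate number were removed, that r was 0.0788, and values ran from −0.858 for Mdm4 and Trp53inp1 to 0.947 for Mdm2 and Cdkn1a. The second highest was 0.647, and the second lowest was −0.693 for Mdm2 and Trp53inp1. With nothing removed, r was −0.564 for Mdm4 and Trp53inp1 and 0.372 for Mdm2 and Cdkn1a. The values after removal rest on 6 degrees of freedom and are the ends of a search over 45 pairs. Differences of an effect between the sets, such as 0.28 for Mdm2 and 0.37 for Cdkn1a in miRbmxl1, were not removed.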

How the data were processed

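RNA of 12 libraries (3 groups of 4) was measured by RNA-seq of sorted cells. The authors deposited 1 file per library with a raw count for each of 55401 gene identifiers, not normalized. The submitters' processing notes name the genome build mm10 and the tools cutadapt, STAR 2.5.3a, HTSeq 0.6.1p1, R 3.3.2 and DESeq2 1.16.1, with no role. The annotation and strand setting used for counting are not given in the sources used here. The 5 rows that name no gene, with 52.3% to 57.4% of each file's total, were left out, which left 43.1 to 52.2 M reads in genes per library. Of the identifiers, 55141 were named from GENCODE M21 (GRCm38) and 260 were not in it.

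Counts were analysed in R 4.3.3 with edgeR 4.0.16: filterByExpr (minimum count 10, minimum total 15) kept 17569 genes, library sizes were scaled by TMM, and a quasi-likelihood model with group and replicate number was fitted to all 12 libraries. P-values were adjusted by Benjamini-Hochberg over all tested genes and called under 0.05. The SE is the log2 fold change divided by the square root of F. The rule that defines the members names the replicate number as a block. Deviations from the group means correlated at 0.195 to 0.524 in all 12 same-number pairs, at 0.10 to 0.431 in 12 pairs with different numbers of the same set (1 and 2, or 3 and 4) and at −0.573 to −0.129 in the other 24, so the pairing comes from the values alone.

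In simulated miRbmx libraries (17569 genes, 200 changed, 3 runs) 59% of genes changed 1.5-fold and 76.8% of those changed 2-fold were recovered, with 4.07% and 5.53% false calls. The simulation built in a level for each replicate number and the spread of the fit with the block, and was fitted with that block. It therefore cannot test the pairing, and it held no difference of effect between the sets. Changes under 1.5-fold, as in all called members but Ddb2, were not simulated. Alternatives were no block, RLE scaling, no filter, DESeq2 1.42.0, each replicate set alone, and leaving out each number or library. The members and lists were chosen with earlier results of these data known. Named are all members, Rbmx and Rbmxl1, the called genes of each list (at most 8) and the 3 genes most like Trp53 and Cdkn1a among those at 1 CPM or more; other names were chosen after their values were seen. CPM use TMM-scaled library sizes, and correlations and set differences use log2 CPM with a prior count of 2. Promoter windows are those of RefSeq. Intervals are not given for CPM, whose error is the spread over libraries. One marker gene of the fixed list is not reported here.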

Additional observations from a re-analysis of the deposited data

Results flagged for a closer look

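Trp53 in miRbmxl1 had a library apart from the others: replicate 3 was at 124.8 CPM, with the other 3 libraries at 141.5 CPM or above. The gap to the nearest library was 0.8925 of the group's range, above the critical value of 0.829 for 4 samples. Of 30 groups of 4 libraries (10 members in 3 groups) this was the only one set apart in this way, where chance gives about 5%. Without this library the log2 fold change of Trp53 in miRbmxl1 was −0.04 ± 0.07 (edgeR adjusted p 0.864), and it was not called with or without it.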

How the results depend on the processing

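The replicate block decided the calls. Without the replicate block, 0 members were called by edgeR in miRbmx and 0 in miRbmxl1, 1 gene of all tested was called in each, and 0 genes of each of the 3 pathway lists. The labels do not say that a number pairs samples, and a call lost without the block is not a smaller effect.

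Within replicates 1 and 2 alone, 0 members and 4 genes in all were called in miRbmx, 0 members and 30 genes in miRbmxl1, 4 genes between the knockdowns, and 0 genes of each list. Within replicates 3 and 4 alone, 4 members were called in miRbmx (Zmat3 in place of Mdm4) and 2 in miRbmxl1. There, 7 other p53 targets, 1 regulator and 6 cell cycle genes were called in miRbmx, 1 other target, 3 regulators and 3 cell cycle genes in miRbmxl1, and 1818, 992 and 18 genes in all in miRbmx, in miRbmxl1 and between the knockdowns. With no filter on low counts, 6 other targets and 2085 genes in all were called in miRbmx, and 1 cell cycle gene and 1243 genes in all in miRbmxl1. That fit called 1 member and 86 genes between the knockdowns. DESeq2 called 5 other targets, 5 regulators and 2024 genes in all in miRbmx, and 1 cell cycle gene and 1279 genes in all in miRbmxl1. It called 10 genes between the knockdowns, with 4 and 3 members against miScramble. The main fit called 1467 genes in all in miRbmx and 783 in miRbmxl1. RLE scaling ended the call of Trp53inp1 in miRbmxl1 (edgeR adjusted p 0.0514), and took its called regulators from 3 to 2 and its other targets from 3 to 2, each by 1 rise. RLE scaling, DESeq2 and the fit with no filter each left the median of all genes within 0.01 of its value. The cause of these differences was not tested.

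The direction of some values reversed. In replicates 3 and 4 alone, log2 fold changes were 0.025 in miRbmx and 0.030 in miRbmxl1 for Mdm2, and 0.14 for Cdkn1a and 0.096 for Bax in miRbmxl1. Between the knockdowns they were −0.0054 for Mdm2, 0.075 for Mdm4, −0.044 for Cdkn1a and −0.041 for Zmat3. In replicates 1 and 2 alone they were 0.092 for Ddb2 in miRbmxl1 and 0.030 for Bax between the knockdowns. None of these was called.

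Leaving out each number or library in turn, 1 to 4 members and 146 to 1904 genes were called in miRbmx, 0 to 2 members and 100 to 1032 genes in miRbmxl1, and 0 members and 2 to 7 genes between the knockdowns. The lists gave 0 to 5 other targets, 0 to 5 regulators and 0 to 2 cell cycle genes in miRbmx, and 0 to 3, 1 to 3 and 0 to 2 in miRbmxl1. The set difference of the effects gave 0 members throughout. Directions reversed in some of these fits for Trp53 (−0.11 to 0.036) and Mdm2 (−0.080 to 0.0070) in miRbmx, and for Cdkn1a (−0.11 to 0.028), Ccng1 (−0.071 to 0.080), Ddb2 (−0.33 to 0.14) and Bax (−0.14 to 0.059) in miRbmxl1. They also reversed for Trp53 (−0.0037 to 0.13), Mdm4 (−0.093 to 0.062), Trp53inp1 (−0.13 to 0.0044) and Bax (−0.13 to 0.032) between the knockdowns.

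Single libraries ended calls as follows, with edgeR's adjusted p without them. In miRbmx, Mdm4 was lost without miScramble 1 (0.0731), miRbmx 1 (0.0580) or miRbmx 2 (0.0735), and Ddb2 without miScramble 1 (0.0599), miScramble 3 (0.0699), miRbmx 2 (0.0587) or miRbmx 3 (0.0562). Trp53inp1 was lost without miScramble 3 (0.0724), miScramble 4 (0.0640) or miRbmx 3 (0.0622), and Ccng1 without miScramble 1 (0.0955), 3 (0.171) or 4 (0.0695) or miRbmx 2 (0.0508), 3 (0.150) or 4 (0.0804). In miRbmxl1, Mdm4 was lost without any 1 library of miScramble (0.0567 to 0.137) or without miRbmxl1 1 (0.123), 3 (0.0800) or 4 (0.104). Zmat3 was lost without any 1 library of miScramble (0.0870 to 0.142), miRbmx 1 (0.0598) or miRbmxl1 1, 2 or 3 (0.0864 to 0.106). Trp53inp1 was lost without any 1 library other than miScramble 1 (0.0513 to 0.180). Ddb2 had the fewest reads of the members, 55 to 204 per library, and the part of depth in the lost calls was not tested.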
